A study of Mus musculus with 4 samples.

Results

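The cells described here are CD8 T cells from the spleens of lymphoma-bearing mice that carried transcripts of both Tcf7 and Pdcd1 and none of Havcr2. They were chosen by UMIs (unique molecular identifiers, counted transcript molecules) of a few genes: a productive T-cell receptor beta (TRB) chain, at least 1 UMI of Cd8a or Cd8b1, none of Cd4, at least 1 of Tcf7, at least 1 of Pdcd1, none of Havcr2, at most 2 of Cd79a and Cd79b together, and at least 200 detected genes. In all, 407 of 33120 barcodes met these criteria, 49 in the pBIC10 mouse and 358 in the pBIC mouse. They are called Tcf7+ Pdcd1+ cells below, and are set against the CD8 barcodes of the same library with no Tcf7 UMI and at least 1 Havcr2 UMI, called Havcr2+ cells, of which there were 1803 in pBIC10 and 2906 in pBIC. The transcripts of Tcf7, Pdcd1 and Havcr2 chose the cells, so their levels are not results, and every gene contrast between these sets, made in the same cells, is a description with no test.

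Tcf7 encodes TCF-1, a transcription factor of T-cell development that naive and memory T cells keep and that effector cells lose. In chronic infection and in tumours, CD8 T cells that hold both TCF-1 and the inhibitory receptor PD-1 (Pdcd1) are known as progenitor exhausted cells: they renew themselves and give rise to TIM-3 (Havcr2) positive cells, which carry more granzymes and inhibitory receptors and divide for a limited time. Slamf6, a surface receptor of the SLAM family, and Il7r, the alpha chain of the receptor for the survival cytokine interleukin 7, are often used to recognise them.

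The study took cells from 1 pBIC10 mouse and 1 pBIC mouse, both female, and made 1 gene expression library and 1 TCR-enriched library from each spleen. Both mice carried a B-cell lymphoma marked by GFP, and live sorted cells had been recombined to 20% GFP-positive and 80% GFP-negative cells before loading. The series' title concerns interleukin 10 made by the tumour's B cells. The labels name the genotypes without listing their alleles or the age of the mice. With 1 mouse per genotype, genotype, mouse and tumour cannot be told apart, no test between genotypes was possible, and all intervals are 95% intervals that cover counting error only.

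The gene expression libraries held 147884282 UMIs in pBIC10 and 166941618 in pBIC. Tcf7+ Pdcd1+ cells had a median of 11327 UMIs in pBIC10 and 6468.5 in pBIC, and Havcr2+ cells a median of 9847 and 8255.5, so the order of depth of the sets differed between the mice. The summed counts behind the levels below were 816986 UMIs for the pBIC10 Tcf7+ Pdcd1+ cells and 2641120 for those of pBIC. The libraries shared 712 barcode sequences, among them 2 of the pBIC10 and 9 of the pBIC Tcf7+ Pdcd1+ cells, but none of these cells carried a TRB sequence found in the other mouse. UMIs of other cell types were unevenly spread: 12 of 49 (24.5%) Tcf7+ Pdcd1+ cells of pBIC10 and 8 of 358 (2.23%) of pBIC held over 20 UMIs of the B lineage and myeloid marker lists, against 12.8% and 2.37% of Havcr2+ cells. Cd74, a member of the B lineage list, was left out of this count. The part of these other-cell UMIs in the results was not tested. Named calls that were found to end without the barcodes holding over 20 of them are given beside the gene.

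Tcf7+ Pdcd1+ cells made up 1.68% (1.25 to 2.22) of the 2909 CD8 barcodes of pBIC10 and 6.12% (5.52 to 6.77) of the 5849 of pBIC. Because a cell with more UMIs more easily shows 1 Tcf7 UMI and less easily shows 0 Havcr2 UMIs, each CD8 barcode was also thinned to 2000 UMIs before the criteria were applied, which left out 48 and 77 barcodes. The shares were then 0.302% (0.131 to 0.594, 8 cells) in pBIC10 and 1.55% (1.24 to 1.91, 85 cells) in pBIC. Tcf7 UMIs from free RNA were judged in barcodes without a TCR: 0.592% of Lyz2-positive myeloid barcodes in pBIC10 and 1.03% in pBIC had a Tcf7 UMI, at medians of 4896 and 4529.5 UMIs. Among Cd79-positive B lineage barcodes the shares were 1.92% and 11.0%, at medians of 15971 and 12676.

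Just inside the threshold of Tcf7, cells with a single Tcf7 UMI differed from cells with more in pBIC10. There the single-UMI cells had 4713 CPM (UMIs of the gene per 1000000 summed UMIs of the set) of Ccl5 and 339 CPM of Il7r, and cells with 2 or more had 388 CPM of Ccl5 and 140 CPM of Il7r. Slamf6 stood at 37.1 CPM in the single-UMI cells and 167 CPM in the others. In pBIC the same split gave 35279 and 26353 CPM of Ccl5, and 257 and 330 CPM of Il7r. Just outside, on the side of Havcr2, 34 pBIC10 and 102 pBIC cells carried UMIs of Tcf7, Pdcd1 and Havcr2 together, with 463 and 1830 CPM of Gzmb.

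Of the markers by which such cells are usually recognised, Il7r marked them in both mice and Slamf6 in only 1. Il7r stood at 186 CPM (158 to 218) in Tcf7+ Pdcd1+ cells and 78.6 CPM (75.1 to 82.3) in Havcr2+ cells of pBIC10, a log2 ratio of 1.24 (0.99 to 1.48). In pBIC it stood at 290 CPM (269 to 311) and 37.7 CPM (35.7 to 39.9), a log2 ratio of 2.94 (2.81 to 3.07). An Il7r UMI was present in 89.8% of pBIC10 and 54.5% of pBIC Tcf7+ Pdcd1+ cells, far above the 2.80% and 2.58% of myeloid barcodes. These shares were not matched for depth. Median UMIs were 11327 and 6468.5 in the Tcf7+ Pdcd1+ cells, and 4896 and 4529.5 in the myeloid barcodes. Slamf6 reached 137 CPM (113 to 165) against 70.4 CPM (67.1 to 73.9) in pBIC10, but 54.9 CPM (46.3 to 64.6) against 52.6 CPM (50.2 to 55.1) in pBIC, where the interval of the log2 ratio, -0.19 to 0.31, includes no difference. The name progenitor exhausted cell is therefore not used here for the pBIC cells. Nor is it used for those of pBIC10, where cells with a single Tcf7 UMI had less Slamf6 than Havcr2+ cells. In both mice the set is called by the transcripts that chose it. Pdcd1, a gene of the rule, was at similar levels in both sets: 190 and 153 CPM in pBIC10, and 259 and 234 CPM in pBIC.

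Over all genes with a mean of at least 10 CPM over both sets, and called at 1.5-fold, 928 of 7488 (12.4%) were higher and 968 (12.9%) lower in Tcf7+ Pdcd1+ cells of pBIC10. In pBIC, 610 of 7821 (7.80%) were higher and 1184 (15.1%) lower. Of 7074 genes measured in both mice, 105 (1.48%) were higher in both and 157 (2.22%) lower in both, and 267 (3.77%) were higher in pBIC10 and lower in pBIC, against 71 of the 7074 the other way round. The median log2 ratio of all measured genes was 0.03 in pBIC10 and -0.11 in pBIC. TMM scaling moved every pBIC10 ratio by -0.12 and every pBIC ratio by 0.02 on the log2 scale.

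Receptors of memory and homing were the group with most members higher in both mice, 5 of 11 measured, Il7r, S1pr1, Cxcr3 and Cxcr5 among them. Their list's median log2 ratio was 0.88 in pBIC10 and 0.87 in pBIC. S1pr1, the receptor for leaving lymphoid tissue along sphingosine-1-phosphate, had 24.5 and 11.5 CPM in pBIC10, and 51.9 and 17.5 CPM in pBIC. Cxcr3, a receptor for interferon-induced chemokines, had 51.4 and 29.7 CPM in pBIC10, and 170 and 82.3 CPM in pBIC. Cxcr5, which guides cells to B-cell follicles, was low throughout, at 17.1 and 5.58 CPM in pBIC10 and 17.8 and 9.71 CPM in pBIC. Without barcodes rich in other-cell UMIs, it rested on 7 UMIs in the pBIC10 Tcf7+ Pdcd1+ cells. The pBIC10 log2 ratio was then 1.13 (-0.22 to 2.22), an interval that includes no difference.

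The same list held 1 gene that was lower in both mice, and others, Slamf6 and Ccr7 in pBIC10 and Ly6c2 in pBIC, that were called higher in a single mouse. Icos, a co-stimulatory receptor of activated T cells, had 33.0 CPM in Tcf7+ Pdcd1+ cells and 88.9 CPM in Havcr2+ cells of pBIC10, and 30.7 and 108 CPM in pBIC. Ccr7, the chemokine receptor for T-cell zones, had 266 and 41.9 CPM in pBIC10. A Ccr7 UMI was present in 63.3% of the pBIC10 Tcf7+ Pdcd1+ cells, and 1 cell held 26.7% of their Ccr7 UMIs. In pBIC it was under the level filter at 5.30 and 1.59 CPM, found in 12 of 358 cells.

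Among transcription factors of the progenitor and memory state, Klf2 was higher in both mice and Tox2 lower in both, of 9 measured. Klf2, which drives S1pr1, had 144 CPM (120 to 173) in Tcf7+ Pdcd1+ cells and 47.9 CPM (45.2 to 50.8) in Havcr2+ cells of pBIC10, and 516 and 209 CPM in pBIC. Id3 and Bach2, regulators that hold back effector differentiation, passed the level filter in 1 mouse each, but had intervals above no difference in both. Id3 had 34.3 and 1.23 CPM in pBIC10, and 12.9 and 1.38 CPM in pBIC. Bach2 had 12.2 and 2.96 CPM in pBIC10, and 19.3 and 3.03 CPM in pBIC. Lef1, the relative of Tcf7, had 72.2 and 40.0 CPM in pBIC10 while its log2 ratio in pBIC, 0.58, was short of 1.5-fold. Myb, known for self-renewal of progenitor exhausted cells, went opposite ways: 72.2 and 24.8 CPM in pBIC10, and 7.95 and 19.2 CPM in pBIC. Tox2, a relative of Tox, had 8.57 and 18.4 CPM in pBIC10, and 11.4 and 33.9 CPM in pBIC.

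**Figure D1:**
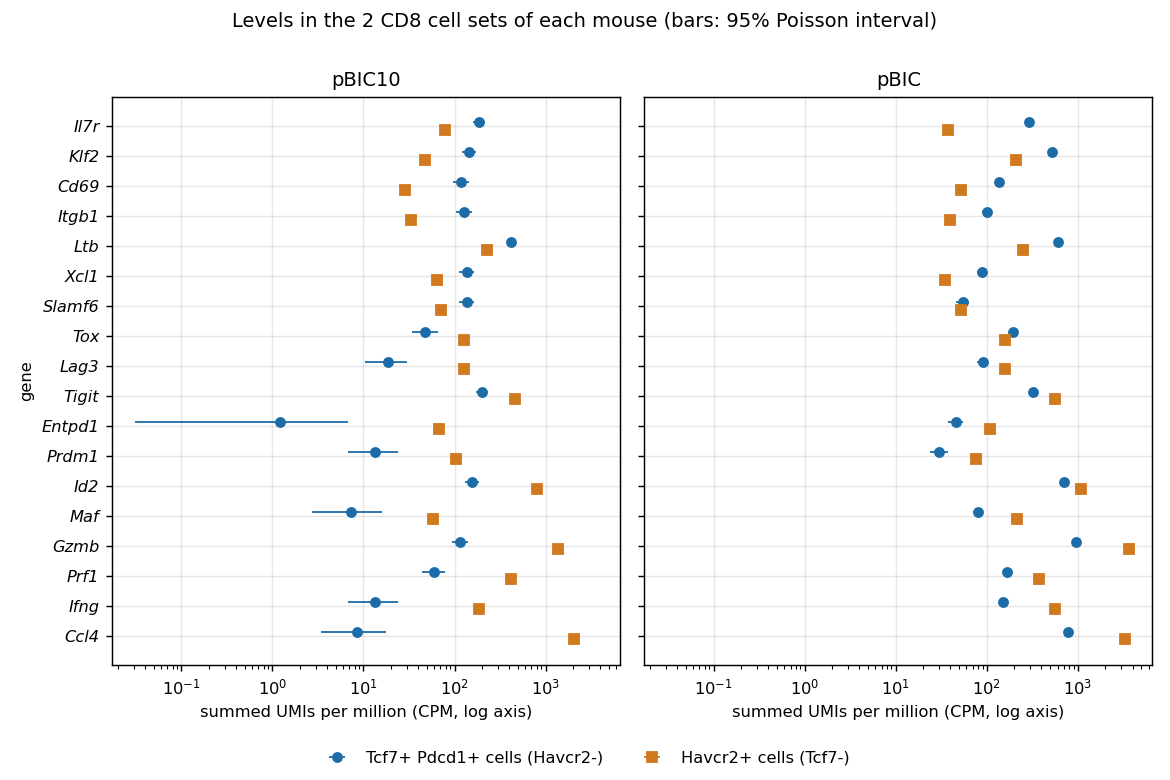
Levels of named genes in Tcf7+ Pdcd1+ cells (circles) and Havcr2+ cells (squares) of each mouse, as CPM of summed UMIs on a log axis with 95% Poisson intervals. The circles lie right of the squares for Il7r to Xcl1 and left of them from Lag3 to Ccl4 in both mice, while Slamf6 and Tox differ between the panels.

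Genes of naive T cells were also higher, more so in pBIC10. All 6 measured members were higher there, with a median log2 ratio of 2.46, and 3 of 5 in pBIC, with a median of 1.32. Nsg2 had 29.4 and 0.761 CPM in pBIC10, and 18.2 and 2.01 CPM in pBIC. Dapl1 had 28.2 CPM, from 23 UMIs in 8 cells, against 0.0423 CPM in pBIC10, and stood at 1.14 CPM, from 3 UMIs, against 0 in pBIC. Genes of antigen-experienced T cells set the mice apart: 6 of 10 were lower in pBIC10, with a median of -0.82, and 1 of 10 in pBIC, with a median of 0.14. Ccl5, a chemokine that memory and effector CD8 cells store, had 1387 CPM (1307 to 1470) in Tcf7+ Pdcd1+ cells and 10949 CPM in Havcr2+ cells of pBIC10. In pBIC it had 31278 CPM (31065 to 31492) and 27024 CPM, and every Tcf7+ Pdcd1+ cell carried it, while myeloid barcodes held 255 CPM in pBIC10 and 653 CPM in pBIC. Cd44, the activation-linked adhesion receptor, had 42.8 and 50.5 CPM in pBIC10, and 68.5 and 36.2 CPM in pBIC. Itgb1, the beta chain of several integrins, was higher in both mice, with 127 and 33.0 CPM in pBIC10, and 100.3 and 39.7 CPM in pBIC.

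Inhibitory receptors other than Pdcd1 differed between the mice as a list. In pBIC10, 6 of 8 measured were lower and 1 higher, with a median log2 ratio of -1.07, and in pBIC 4 of 10 were lower and 2 higher, with a median of 0.01. The 2 higher in pBIC were Cd244a, at 15.9 and 5.37 CPM, and Btla, at 22.0 and 13.0 CPM. Of 7 measured in both mice, Lag3, Tigit, Ctla4 and Entpd1 were lower in both and none was higher in both. Lag3 had 18.4 CPM (10.3 to 30.3) in Tcf7+ Pdcd1+ cells and 127 CPM (123 to 132) in Havcr2+ cells of pBIC10, and 90.1 and 157 CPM in pBIC. Tigit had 202 and 463 CPM in pBIC10, and 326 and 564 CPM in pBIC. Entpd1, the ectoenzyme CD39 of terminally exhausted cells, had 1 UMI (1.22 CPM) against 66.9 CPM in pBIC10, and 45.8 against 109 CPM in pBIC. Ctla4 had 91.8 and 177 CPM in pBIC10, and 53.0 and 101 CPM in pBIC, and its pBIC10 log2 ratio was -0.51, short of 1.5-fold, without barcodes rich in other-cell UMIs. Cd160 did not pass 1.5-fold in either mouse, at 41.6 and 49.4 CPM in pBIC10 and 178 and 129 CPM in pBIC.

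Transcription factors of effector and exhausted cells were lower in both mice for 6 of 16 measured, Prdm1, Id2, Maf, Batf, Irf4 and Nr4a2, and higher in both for none. The list's median log2 ratio was -0.98 in pBIC10 and -0.44 in pBIC. Prdm1, which encodes the terminal differentiation factor BLIMP-1, had 13.5 CPM (6.72 to 24.1) in Tcf7+ Pdcd1+ cells and 104 CPM in Havcr2+ cells of pBIC10, and 30.3 and 76.5 CPM in pBIC. Id2, the counterpart of Id3 in effector cells, had 155 and 795 CPM in pBIC10, and 703 and 1078 CPM in pBIC. Maf had 7.34 and 58.0 CPM in pBIC10, and 80.6 and 214 CPM in pBIC. Tox, which programs exhaustion, was lower only on the side of pBIC10, at 47.7 and 126 CPM, against 197 and 159 CPM in pBIC, a log2 ratio of 0.30. Tbx21, the gene of T-bet, was called in opposite directions, at 9.79 and 20.5 CPM in pBIC10 and 60.6 and 28.2 CPM in pBIC.

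Of the cytotoxicity genes, 8 of 14 measured were lower and 2 higher in pBIC10, and 7 of 14 lower and 5 higher in pBIC, with medians of -1.28 and -0.39. Gzmb, the protease granzyme B that kills target cells, had 115 CPM in Tcf7+ Pdcd1+ cells and 1383 CPM in Havcr2+ cells of pBIC10, a log2 ratio of -3.59 (-3.90 to -3.30). In pBIC it had 955 CPM (918 to 993) and 3690 CPM, a log2 ratio of -1.95 (-2.01 to -1.89). Prf1, the pore former perforin, had 59.98 and 417 CPM in pBIC10, and 166 and 375 CPM in pBIC. Gzmk and Klrg1 were lower in both mice too, and Klrk1, the activating receptor NKG2D, was higher, at 96.7 and 32.3 CPM in pBIC10 and 182 and 44.8 CPM in pBIC; in all, 1 of 12 measured cytotoxicity genes was higher and 4 lower in both. Gzma, granzyme A, was called in opposite directions, at 153 and 78.0 CPM in pBIC10 and 175 and 323 CPM in pBIC. Gzmk had 341 and 821 CPM in pBIC10, and 936 and 1407 CPM in pBIC, and its pBIC log2 ratio was -0.58, just short of 1.5-fold, without barcodes rich in other-cell UMIs. Gzmm, a granzyme that the level filter left out in pBIC10, had 14.7 and 0.676 CPM there, and 31.05 and 1.38 CPM in pBIC.

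Of 8 measured cytokines and chemokines, Ifng, Ccl3, Ccl4, Csf1 and Il10 were lower in both mice, and Xcl1 and Ltb higher. Ccl4, an attractant for macrophages and T cells, had 7 UMIs (8.57 CPM) in Tcf7+ Pdcd1+ cells and 2074 CPM in Havcr2+ cells of pBIC10, and 783 and 3335 CPM in pBIC. Ccl3 had 7.34 and 896 CPM in pBIC10, and 176 and 1114 CPM in pBIC. Ifng, which encodes interferon gamma, had 13.5 and 186 CPM in pBIC10, and 153 and 567 CPM in pBIC. Csf1, a macrophage growth factor, had no UMI in the pBIC10 cells, where it was at least 14.6-fold lower than the 53.5 CPM of Havcr2+ cells, taking 3 counts over the set as the floor. In pBIC it had 15.9 and 136 CPM. Il10 had 4 UMIs (4.90 CPM) against 35.5 CPM in pBIC10, and 12 UMIs (4.54 CPM) against 61.9 CPM in pBIC.

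Ltb, the lymphotoxin beta chain, had 420 and 230 CPM in pBIC10, and 604 and 249 CPM in pBIC. Xcl1, which attracts cross-presenting dendritic cells, had 136 CPM in Tcf7+ Pdcd1+ cells and 64.5 CPM in Havcr2+ cells of pBIC10, and 88.6 and 35.0 CPM in pBIC. It was concentrated in few cells: 11 of 49 pBIC10 and 32 of 358 pBIC Tcf7+ Pdcd1+ cells had a UMI of it, and single cells held 29.7% and 40.2% of the UMIs. Without the barcodes rich in other-cell UMIs its pBIC10 log2 ratio was 0.10 (-0.43 to 0.58), so the call ended in that mouse. Il2 was found in 13 of 358 pBIC cells, with 15 UMIs, and in none of 49 pBIC10 cells, which, at 3 counts, allows up to 6.12% of cells with a UMI and sets no limit on cells that express the gene.

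Signs of recent TCR signalling were mixed. Cd69, an early activation and tissue-retention molecule, had 119 and 28.9 CPM in pBIC10, and 138 and 51.9 CPM in pBIC. Egr1, Nr4a1 and Rgs16 of the same list were lower in both mice, with Egr1 at 36.7 and 111 CPM in pBIC10 and 47.3 and 124 CPM in pBIC, so 1 of 9 measured was higher and 3 lower. Of 9 interferon response genes, Isg15 and Ly6a were lower in both mice and none higher. None of 4 co-stimulatory TNF receptors passed the same way in both.

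**Figure D2:**
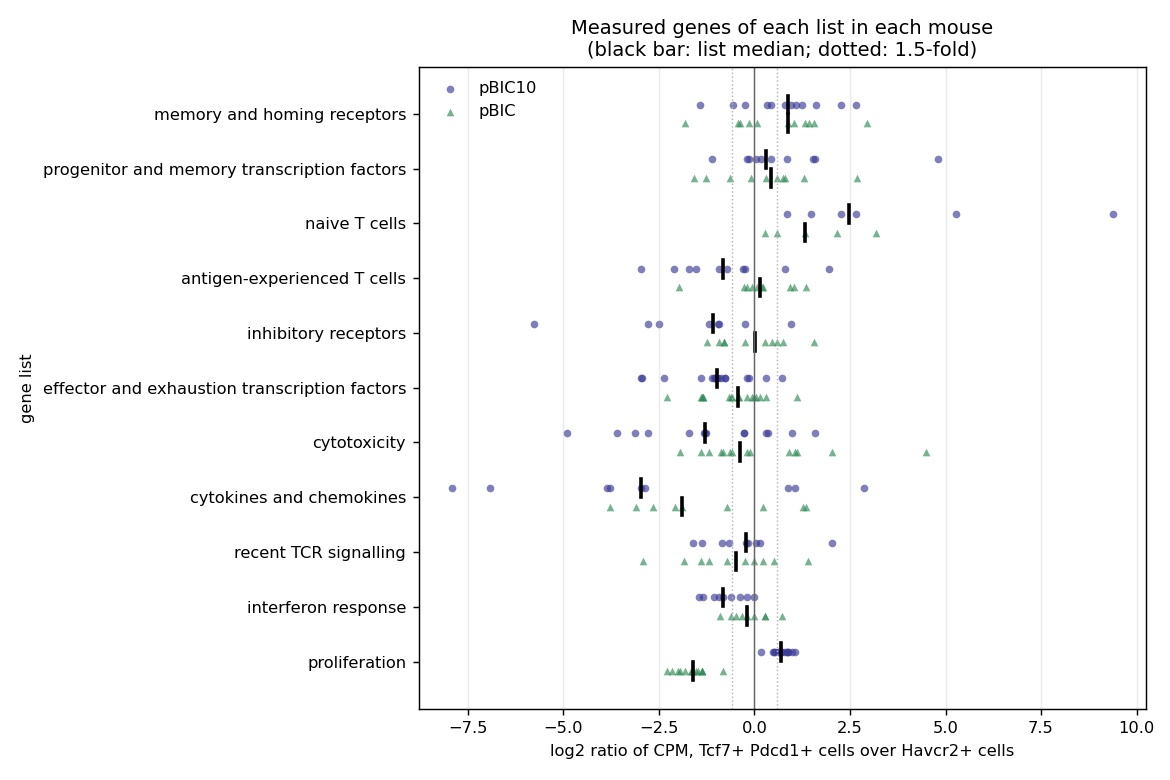
Log2 ratio of Tcf7+ Pdcd1+ cells over Havcr2+ cells for each measured gene of 11 lists, pBIC10 as circles above pBIC as triangles, with the list median as a black bar and 1.5-fold as dotted lines. The proliferation medians lie on opposite sides of 0, at 0.71 in pBIC10 and -1.62 in pBIC, whereas those of the cytokine and effector factor lists lie below 0 in both.

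Cell division genes separated the mice. In pBIC10, 10 of 14 were higher in Tcf7+ Pdcd1+ cells and none lower, with a median log2 ratio of 0.71. In pBIC all 14 were lower, with a median of -1.62. Their summed level was 3384 CPM in Tcf7+ Pdcd1+ cells and 2170 CPM in Havcr2+ cells of pBIC10, and 1698 and 4174 CPM in pBIC. Mki67, a protein of cycling cells, had 288 CPM (252 to 327) and 187 CPM (182 to 193) in pBIC10, and 175 CPM (159 to 191) and 452 CPM (445 to 460) in pBIC. Top2a UMIs were found in 49.0% of Tcf7+ Pdcd1+ and 34.3% of Havcr2+ cells of pBIC10, and in 24.6% and 49.6% of those of pBIC. Thinned to 2000 UMIs, these shares were 22.4% and 13.4% in pBIC10, and 10.1% and 26.9% in pBIC. Here the cells were those chosen at full depth, and the criteria were not applied again. In each mouse the set with the higher summed level also had the higher median depth. Medians of Tcf7+ Pdcd1+ and Havcr2+ cells were 11327 and 9847 UMIs in pBIC10, and 6468.5 and 8255.5 in pBIC. The part of depth in this contrast was not tested.

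Counted per cell, 18 of 49 (36.7%, 23.4 to 51.7) Tcf7+ Pdcd1+ cells and 19.4% (17.6 to 21.3) of Havcr2+ cells of pBIC10 had over 2000 CPM of the 14 genes together. In pBIC the shares were 7.26% (4.80 to 10.5) and 29.9% (28.2 to 31.6). Without the barcodes rich in other-cell UMIs, 7 of 14 genes were higher in pBIC10 at a median of 0.61, and all 14 lower in pBIC at -1.57.

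**Figure D3:**
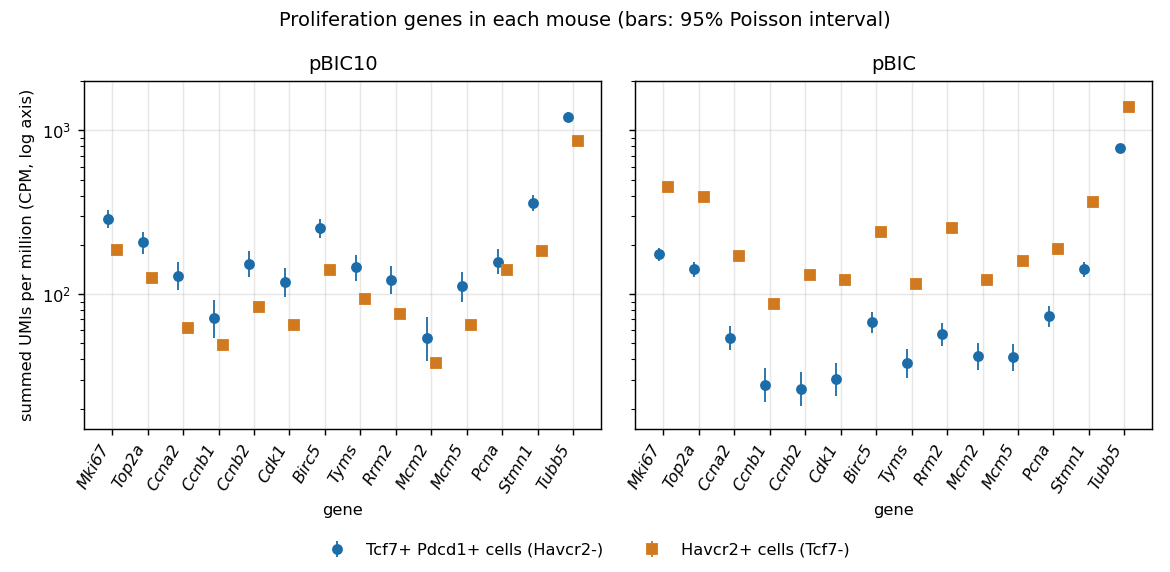
CPM of the 14 proliferation genes in Tcf7+ Pdcd1+ cells (circles) and Havcr2+ cells (squares) on a log axis with 95% Poisson intervals, pBIC10 left and pBIC right. For Mki67 the circle is above the square in pBIC10, 288 against 187 CPM, and below it in pBIC, 175 against 452 CPM.

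Outside the lists, the 8 genes ranked first as higher in both mice were Evl, Tespa1, Cpne3, Gramd3, Pdlim1, Rnf157, Gpr183 and Il18r1. Evl, a regulator of actin filaments, had 77.1 and 10.9 CPM in pBIC10, and 126 and 24.0 CPM in pBIC. Tespa1, a TCR signalling protein of the thymus, had 50.2 and 8.07 CPM in pBIC10, and 59.4 and 11.9 CPM in pBIC. Gpr183, a receptor for oxysterols that positions lymphocytes in the spleen, had 126 and 39.3 CPM in pBIC10, and 34.5 and 6.80 CPM in pBIC. Il18r1, a receptor chain for interleukin 18, had 34.3 and 8.83 CPM in pBIC10, and 46.6 and 13.6 CPM in pBIC.

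The 8 ranked first as lower were Cdkn1a, Tff1, Filip1, Neb, Serpine2, Ociad2, Mt3 and Morrbid. Cdkn1a, the cell-cycle inhibitor p21, had 25.7 and 230 CPM in pBIC10, and 9.47 and 82.0 CPM in pBIC. Tff1, a secreted trefoil peptide best known from the stomach, had 61.2 and 379 CPM in pBIC10, and 6.44 and 43.0 CPM in pBIC. Morrbid, a long noncoding RNA known for myeloid cell survival, had 4.90 and 51.4 CPM in pBIC10, and 15.9 and 56.2 CPM in pBIC.

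Read across all CD8 barcodes, split by the same 3 transcripts, levels were graded for some genes and not for others. Il7r was highest in Tcf7+ Pdcd1- Havcr2- barcodes, at 286 CPM in pBIC10 and 349 CPM in pBIC, above the 186 and 290 CPM of Tcf7+ Pdcd1+ cells. Barcodes with all 3 transcripts had 127 and 184 CPM of Il7r, and those with Pdcd1 alone 114 and 88.1 CPM. Gzmb took the reverse order, with 120 and 779 CPM in Tcf7+ Pdcd1- Havcr2- barcodes, 463 and 1830 CPM in those with all 3, and 720 and 2139 CPM in those with Pdcd1 alone. In pBIC10, the Gzmb intervals of Tcf7+ Pdcd1+ and Tcf7+ Pdcd1- Havcr2- barcodes overlapped. Ccl5 in pBIC10 was 1387 CPM in Tcf7+ Pdcd1+ cells, 2378 CPM with all 3 transcripts and 16504 CPM with Pdcd1 alone. Havcr2+ cells that also had a Pdcd1 UMI gave 71.2 and 33.6 CPM of Il7r and 1448 and 3478 CPM of Gzmb, close to all Havcr2+ cells.

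**Figure D4:**
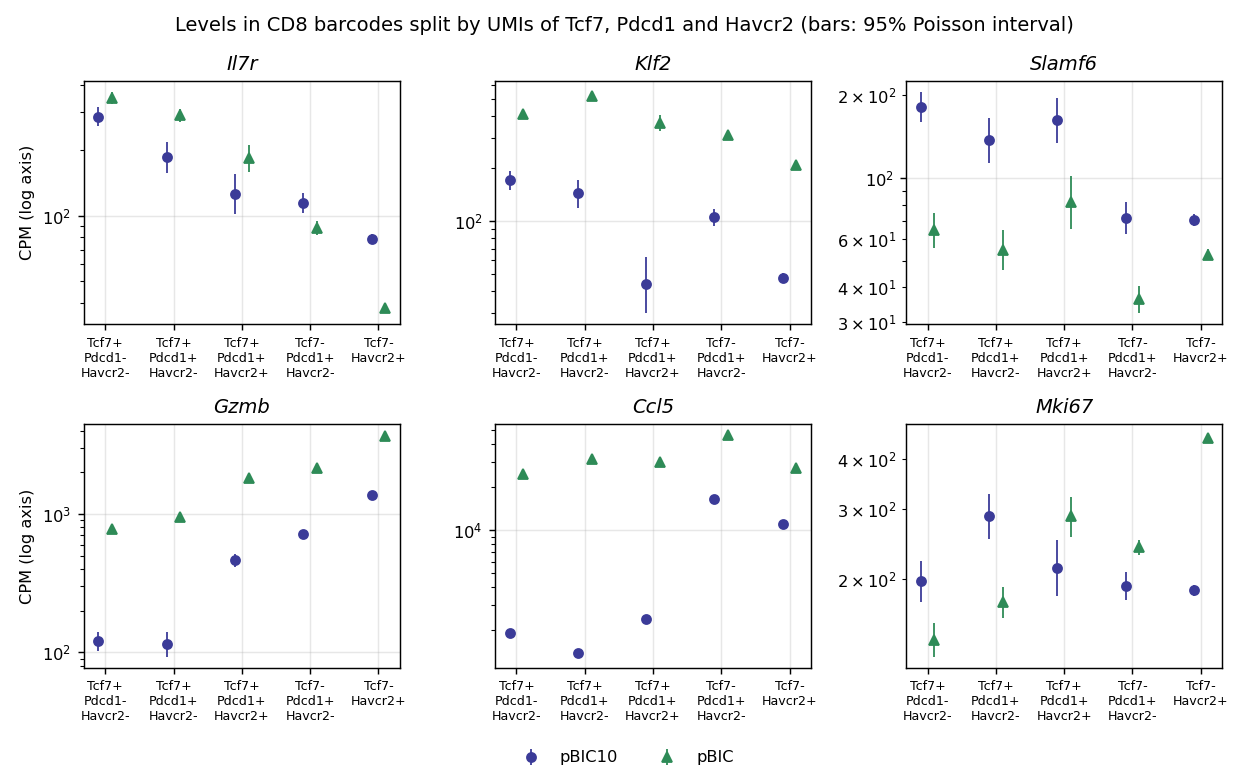
CPM of 6 genes, on log axes with 95% Poisson intervals, in CD8 barcodes split by UMIs of Tcf7, Pdcd1 and Havcr2, pBIC10 as circles and pBIC as triangles. Il7r declines from the left to the right set in both mice, Gzmb does the reverse except between the first pair of sets in pBIC10, and Mki67 is 288 CPM in pBIC10 and 175 CPM in pBIC for Tcf7+ Pdcd1+ cells.

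Set against each other, the Tcf7+ Pdcd1+ cells of pBIC10 and pBIC differed widely: 1722 of 7721 measured genes (22.3%) were higher and 2223 (28.8%) lower in pBIC10, with a median log2 ratio of -0.09. The same ratio in Havcr2+ cells, given beside it, put 7.44% higher and 22.6% lower, with a median of -0.22. The pBIC10 sum rests on 49 cells, against 358 in pBIC.

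Ccr7 had 266 CPM in pBIC10 and 5.30 CPM in pBIC Tcf7+ Pdcd1+ cells, a log2 ratio of 5.65 (4.87 to 6.54), beside 41.9 and 1.59 CPM in Havcr2+ cells. Cd70, which binds CD27 on activated lymphocytes, had 127 CPM in pBIC10, from 104 UMIs in 23 cells, and 0.379 CPM in pBIC, from 1 UMI, beside 110 and 1.26 CPM in Havcr2+ cells. Tnfsf11, the cytokine RANKL, had 79.6 and 1.14 CPM, with 55.4% of its pBIC10 UMIs in 1 cell. Lad1, Utf1, Tdh, Ramp3 and Penk were the other leading genes higher in pBIC10, and 58.6% of the Penk and 56.0% of the Ramp3 UMIs came from 1 cell. For Tdh the log2 ratio against the floor of 3 counts was 5.84, and 0.72 without barcodes rich in other-cell UMIs. Slamf6 was higher in pBIC10, 137 and 54.9 CPM, and so were Id3 and Myb, while Il7r was lower, 186 and 290 CPM, though the Il7r log2 ratio of -0.64 was -0.19 without those barcodes.

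Several effector genes were lower in the pBIC10 Tcf7+ Pdcd1+ cells, with wider gaps between the mice than in Havcr2+ cells, a difference that was not tested. Ccl4 had 8.57 and 783 CPM in Tcf7+ Pdcd1+ cells of pBIC10 and pBIC, beside 2074 and 3335 CPM in Havcr2+ cells. Ccl5 had a log2 ratio of -4.50 (-4.58 to -4.41), beside -1.30 in Havcr2+ cells, Gzmb -3.05 beside -1.42, and Id2 -2.18 beside -0.44. Cx3cr1, a receptor of circulating effector cells, had 1 UMI in pBIC10 and 61.3 CPM in pBIC. Cd7, an immunoglobulin superfamily receptor of T cells, had 17.1 and 638 CPM, beside 16.5 and 394 CPM in Havcr2+ cells. Of 14 cytotoxicity genes, 10 were lower and 2 higher in pBIC10, and of 14 proliferation genes 12 were higher and none lower, at a median log2 ratio of 1.30. In Havcr2+ cells 12 of the 14 proliferation genes were lower in pBIC10, at a median of -0.95.

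Neutrophil genes were also lower in pBIC10, but their pBIC level lay in few barcodes. S100a8 had 53.9 CPM in pBIC10 and 1585 CPM in pBIC Tcf7+ Pdcd1+ cells, with S100a9, Ngp, Lcn2 and Ltf likewise lower in pBIC10, and 1 pBIC barcode alone held 2022 of the 4186 S100a8 UMIs. Without the barcodes rich in other-cell UMIs, the log2 ratio of S100a8 was 1.77 and that of Ngp 2.42, the opposite sign. UMIs of S100a8 and S100a9 count towards that filter, so the S100a8 ratio is not an independent check. Ngp is not a gene of the filter, but the filter removes barcodes rich in S100a8 and S100a9. The Ngp ratio is therefore not an independent check either.

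The marker lists of other cells gave the following levels. Of the 9 B lineage markers, Pax5 and Ebf1 had 1 UMI each in the pBIC10 Tcf7+ Pdcd1+ cells, and 14 and 5 UMIs in those of pBIC. The list summed to 3509 CPM in Tcf7+ Pdcd1+ and 2050 CPM in Havcr2+ cells of pBIC10, and to 1019 and 699 CPM in pBIC, most of it Cd74. H2-Aa and H2-Ab1, MHC class II genes of antigen-presenting cells, were higher in both mice, with H2-Aa at 712 and 417 CPM in pBIC10 and 213 and 129 CPM in pBIC. Without barcodes rich in other-cell UMIs, the pBIC10 log2 ratio of H2-Aa was 0.33 (-0.03 to 0.67) and that of H2-Ab1 0.34 (-0.06 to 0.72), so both calls ended. UMIs of both genes count towards that filter, so these ratios are not an independent check. With at least 2 Tcf7 UMIs required, both turned in pBIC, to -0.84 for H2-Aa and -1.04 for H2-Ab1. Of the 10 myeloid markers, 6 of 9 measured were lower in pBIC10 and 3 of 6 higher in pBIC, and their sums were 807 and 2156 CPM in pBIC10, and 3763 and 590 CPM in pBIC. Foxp3, the factor of regulatory T cells, had 1 and 8 UMIs in the Tcf7+ Pdcd1+ cells of pBIC10 and pBIC, and Cd40lg, a helper T-cell gene, had 0 and 1. Sox13, a gamma-delta T-cell factor, was at 0 in both, and Trdc had 5 and 0 UMIs. The CD4 and regulatory T list summed to 266 and 359 CPM in pBIC10, and 39.4 and 172 CPM in pBIC, and the NK and gamma-delta T list to 124 and 174 CPM, and 167 and 87.1 CPM. Of the erythroid and platelet list, Hba-a1 and Hbb-bs were lower in both mice, with Hba-a1 at -0.37 in pBIC10 on the log2 scale without those barcodes, and the stress list had no gene that passed the same way in both.

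The TCR sequences were a readout that the choice of cells used only for the presence of a TRB chain. A clonotype is the set of cells to which the authors' table assigns the same receptor chains, and its size is that table's cell count. In pBIC10, 49 Tcf7+ Pdcd1+ cells fell into 48 clonotypes with a median size of 1 cell, and Havcr2+ cells had a median clonotype size of 5. In pBIC, 357 cells with a clonotype fell into 212, with a median size of 14, against a median of 25 for Havcr2+ cells. Cells alone in their clonotype made up 75.5% (61.1 to 86.7) of Tcf7+ Pdcd1+ cells and 23.8% (21.9 to 25.8) of Havcr2+ cells of pBIC10. In pBIC they made up 20.2% (16.1 to 24.7) and 8.50% (7.51 to 9.57). Clonotypes of 10 or more cells held 0 of 49 Tcf7+ Pdcd1+ cells, which allows up to 6.12% at 3 counts and 7.25% by the Clopper-Pearson bound, and 34.0% of Havcr2+ cells in pBIC10, and 54.6% and 70.2% in pBIC. Among the cells that met the criteria after thinning to 2000 UMIs, the share alone in their clonotype was 37.5% of 8 cells in pBIC10 and 27.1% of 85 in pBIC. Cells of 1 clonotype descend from 1 T cell and are not independent, which these intervals leave out.

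**Figure D5:**
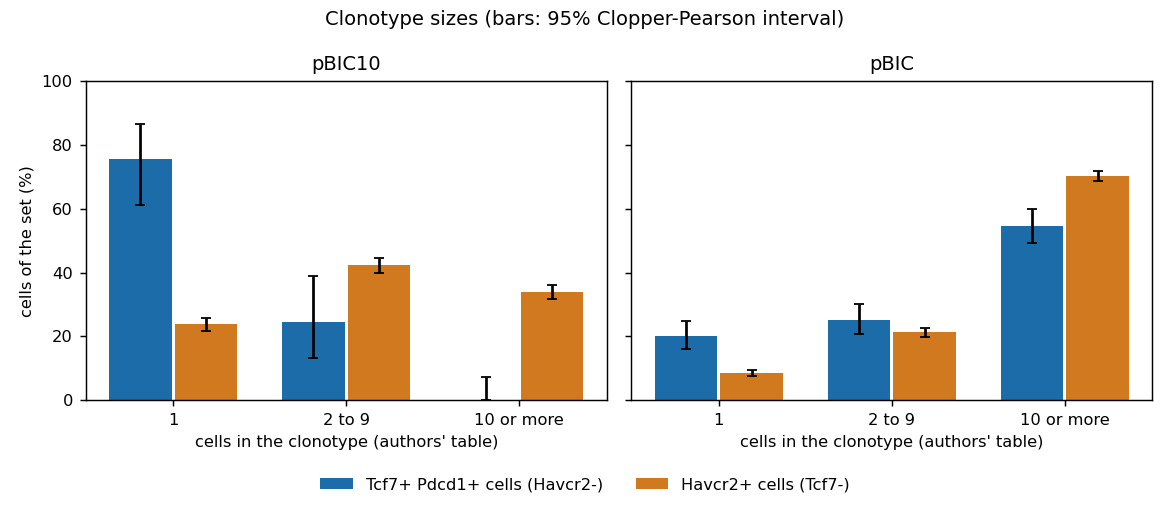
Share of Tcf7+ Pdcd1+ cells (left bar of each pair) and Havcr2+ cells (right bar) in clonotypes of 1, 2 to 9, and 10 or more cells, with 95% Clopper-Pearson intervals, pBIC10 left and pBIC right. Cells alone in their clonotype are 75.5% against 23.8% in pBIC10 and 20.2% against 8.50% in pBIC.

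Over all Tcf7+ Pdcd1+ cells, sharing of a clonotype with Havcr2+ cells was more frequent in pBIC. There 214 of 357 (59.9%, 54.7 to 65.1) Tcf7+ Pdcd1+ cells belonged to a clonotype that also held Havcr2+ cells, and in pBIC10 7 of 49 (14.3%, 5.94 to 27.2) did. After thinning, the pBIC share was 37.6%. Among clonotypes with at least 2 CD8 barcodes, where such sharing can be seen, the intervals overlapped. The counts were 7 of 11 cells (63.6%, 30.8 to 89.1) in pBIC10 and 214 of 277 (77.3%, 71.9 to 82.1) in pBIC. In pBIC10, 2346 of 2908 (80.7%) CD8 barcodes with a clonotype were in a clonotype that held Havcr2+ cells, and in pBIC 4904 of 5848 (83.9%). Of these, 1802 and 2906 were themselves Havcr2+ cells, which count by definition. The 2 shares are therefore not a comparison for those of Tcf7+ Pdcd1+ cells. The 10 clonotypes with most CD8 barcodes held no Tcf7+ Pdcd1+ cell among 479 CD8 barcodes of pBIC10, which allows up to 0.626% at 3 counts and 0.767% by the Clopper-Pearson bound, against 2.02% in all other clonotypes. In pBIC they held 40 of 1298 (3.08%), against 6.97% in all others.

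Single clonotypes of pBIC differed in their makeup. Clonotype 20 had 15 Tcf7+ Pdcd1+ cells and 1 Havcr2+ cell among 44 CD8 barcodes, and clonotype 2 had 17 and 86 among 224. Clonotype 5 had 0 and 98 among 119, which allows up to 2.52% of Tcf7+ Pdcd1+ cells at 3 counts and 3.05% by the Clopper-Pearson bound. In pBIC10, clonotype 210, with 2 such cells among 3 CD8 barcodes, was the only one with more than 1, and clonotype 1, the largest, had 0 and 82 among 108. The TRB junction sequences of these clonotypes are printed to show which receptors the rich and the empty clonotypes carried, with the first and last codon of CDR3, the part of the chain that contacts the antigen peptide, in capitals. The TRB genes lie on chromosome 6.
pBIC clonotype 20, TRBV3 and TRBJ1-3: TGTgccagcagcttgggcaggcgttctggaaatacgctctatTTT
pBIC clonotype 2, TRBV12-1 and TRBJ2-1: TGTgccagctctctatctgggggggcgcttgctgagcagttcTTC
pBIC clonotype 5, TRBV19 and TRBJ1-4: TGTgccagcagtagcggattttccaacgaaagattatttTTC
pBIC10 clonotype 210, TRBV10 and TRBJ2-7: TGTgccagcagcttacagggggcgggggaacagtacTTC
pBIC10 clonotype 1, TRBV31 and TRBJ1-6: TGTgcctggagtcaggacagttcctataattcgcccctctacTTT

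The contrast between the sets was then taken within clonotypes, which holds the receptor constant. Only pBIC had clonotypes with at least 5 cells of both sets, 8 of them with 63 Tcf7+ Pdcd1+ and 287 Havcr2+ cells. These cells are part of the pBIC sets above, so the values with clonotypes weighted equally are not independent of those. Over all 7824 genes measured this way, 1095 were higher and 1480 lower by 1.5-fold. Itgb1 averaged 90.03 CPM in Tcf7+ Pdcd1+ cells and 37.1 CPM in Havcr2+ cells and was higher in 8 of 8 clonotypes. Il7r averaged 105 and 22.5 CPM and was higher in 6 of 8. Ccl4 averaged 606 and 2943 CPM, and Ifng 188 and 480 CPM, each lower in 8 of 8. Gzmb averaged 1524 and 2265 CPM, a log2 ratio of -0.57 against -1.95 over all pBIC cells, and was lower in 7 of 8. For some genes called in both mice, the average over clonotypes went the opposite way to all pBIC cells. These were Xcl1, with 0.977 and 21.2 CPM, Irf4, with 24.5 and 14.2 CPM, and Klrg1, with 46.5 and 39.9 CPM. Xcl1 was higher in 1 clonotype and lower in 4. Irf4 was higher in 2 and lower in 5, and Klrg1 higher in 3 and lower in 4. For Irf4 and Klrg1 the average was thus opposite, but more clonotypes were lower than higher. The average was also opposite for Rnf157, with 6.82 and 10.4 CPM, and for Hba-a1 and Hbb-bs. Some genes named above but not called in both mice went opposite too, Id3, Tox and Cd160 among them. Id3 was near the floor, at 0.977 and 1.51 CPM, higher in 1 clonotype and lower in 3. Tox averaged 238 and 316 CPM, higher in 3 and lower in 5. Cd160 averaged 130 and 219 CPM, higher in 1 and lower in 7.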

How the data were processed

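Single-cell 5′ gene expression and TCR-enriched libraries were made from 1 pBIC10 and 1 pBIC spleen, and the deposited gene matrices hold whole UMI counts per gene and barcode. The authors made them with Cell Ranger against GRCm39; the submitters' processing notes give version 3.0.1 and the matrix header 5.0.1, a difference not resolved here. The authors' deposited clonotype tables give cell counts per clonotype and each clonotype's fraction of cells, of which the counts were used. How counting used strand is not given in the sources used here.

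The members and gene lists were chosen with earlier results of these data known. UMIs of each set were added up per gene and scaled to CPM; genes with a mean of at least 10 CPM over both sets were measured, and called at 1.5-fold, with the rule's genes left out. Named genes were the marker and rule genes, up to 4 members per list and direction called in both mice, the 8 outside the lists, and the 8 per direction between genotypes, each ranked by the bound nearest to no difference, plus members of lists that are counted. Predicted, sex-linked, receptor-segment, mitochondrial, ribosomal and haemoglobin genes were left out of the ranking outside the lists. Intervals of levels are exact Poisson, of ratios exact conditional binomial and of shares Clopper-Pearson. Doublets were marked with Scrublet in scanpy 1.11.5 at a score threshold of 0.3, chosen after the automatic threshold was seen, and kept: 1 pBIC10 and 2 pBIC Tcf7+ Pdcd1+ cells were marked. The ratio code was tested on simulated data. Python 3.11.15, numpy 2.4.6, pandas 2.3.3, scipy 1.17.1 and, for TMM, edgeR 4.0.16 were used. Alternatives were the Tcf7 threshold, barcode filters, thinning, another comparison set, per-cell means, TMM, level filters and clonotype definitions.

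Results of some list members are not reported here.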

Additional observations from a re-analysis of the deposited data

Results flagged for a closer look

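The proliferation list moved in opposite directions in the mice, with a median log2 ratio of Tcf7+ Pdcd1+ over Havcr2+ cells of 0.71 in pBIC10 and -1.62 in pBIC. The myeloid marker list also did, at -1.02 in pBIC10 and 0.60 in pBIC. Neither difference was tested, since there was 1 library per genotype. In pBIC, 1 barcode held 2022 of the 4186 S100a8 UMIs of the myeloid list, and the proliferation medians were 0.61 and -1.57 without barcodes rich in other-cell UMIs. Without them, 4 myeloid genes were measured in each mouse, at medians of -0.34 in pBIC10 and 0.49 in pBIC. The myeloid sums in pBIC were then 170 CPM in Tcf7+ Pdcd1+ and 151 CPM in Havcr2+ cells. Myeloid UMIs count towards that filter, so these values are not an independent check.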

How the results depend on the processing

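No paired analysis was possible because each genotype had 1 mouse. Requiring 2 Tcf7 UMIs gave Tcf7+ Pdcd1+ shares of CD8 barcodes of 1.07% in pBIC10 and 2.56% in pBIC, and in pBIC 27.3% of these cells alone in their clonotype and 48.7% in clonotypes with Havcr2+ cells. It gave 253 genes lower in both mice, and turned H2-Aa to -0.84 and H2-Ab1 to -1.04 in pBIC (log2); the cause was not tested. Thinning to 2000 UMIs, which leaves 8 and 85 cells, gave shares of 0.302% and 1.55%, cells alone in their clonotype of 37.5% and 27.1%, and 37.6% of pBIC cells in clonotypes with Havcr2+ cells. A mean of at least 50 CPM, which tests fewer genes, gave 24 genes higher and 53 lower in both mice, and 754 higher and 691 lower in pBIC10 than in pBIC. Under the other alternatives that gave a count, 88 to 145 genes were higher and 157 to 215 lower in both mice, with the most higher without barcodes over 20 other-cell UMIs, a limit chosen after seeing the data. Of 784 log2 ratios of 56 named genes under 7 alternatives, 654 stayed within the interval of the reported value, 128 moved beyond it, and the 2 named above changed sign. These ratios are of Tcf7+ Pdcd1+ over Havcr2+ cells and leave out the clonotype-weighted averages and the ratios between genotypes. Within clonotypes, 50 of 55 named genes called in both mice kept their direction. Between genotypes, S100a8 and Ngp changed sign without barcodes rich in other-cell UMIs. The clonotype-weighted alternative gave no count for both mice, since no pBIC10 clonotype held 5 cells of both sets. With 49 pBIC10 cells, a gene under about 3 UMIs has no usable fold, and intervals leave out differences between mice.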
